A study of Mus musculus with 2 samples.

Results

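Border-associated macrophages were looked for among brain cells that had been sorted as microglia, and the barcodes chosen by their marker genes were described in 1 awake and 1 anesthesia library. A barcode was a member if it held at least 500 genes, at least 1000 UMIs (unique molecular identifiers, each standing for 1 captured RNA molecule) and at most 10% mitochondrial UMIs. It also had to hold a UMI of at least 3 of the 6 genes Mrc1, F13a1, Ms4a7, Cbr2, Lyve1 and Pf4, and no UMI of the platelet gene Ppbp. The rule found 92 members among 17167 barcodes that passed the limits on genes, UMIs and mitochondrial UMIs, 51 of 8223 in the awake and 41 of 8944 in the anesthesia library.

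The animals were adult male C57BL/6J mice, an inbred strain, with no altered gene named in the labels. One group of 3 mice was given normal saline and is called awake, and the other group of 3 mice was given 100 mg/kg sodium pentobarbital, a barbiturate anesthetic. All brains were digested with collagenase IV and DNase I, freed of myelin on Percoll and sorted for CD11b with low CD45, and RNA was captured with the 10x Genomics 3' kit v3. Each group has 1 library, and whether its 3 mice were pooled is not given in the sources used here. No difference therefore has a replicate check or a test. Effects of the group, of handling and of the library itself cannot be told apart, and the words higher and lower describe these 2 libraries. The gate was set for microglia, and border-associated macrophages as a rule carry more CD45, so the gate sets how many of them could enter. The intervals below are 95% intervals for counting error only.

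Border-associated macrophages are the resident macrophages of the meninges, the perivascular spaces and the choroid plexus. They take up proteins, lipids and cell debris from the fluids at the edges of the brain, and some of them present antigen on MHC class II. They share many myeloid genes with microglia, the macrophages within the tissue, but make little of the microglial genes P2ry12, Tmem119 and Sall1.

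Each marker has a known role. Mrc1 encodes the mannose receptor, Lyve1 a hyaluronan receptor of macrophages that lie along vessels, F13a1 the A subunit of coagulation factor XIII, Cbr2 a carbonyl reductase, Ms4a7 a membrane protein of the MS4A family and Pf4 the chemokine platelet factor 4. Platelets also hold Pf4, which is why the rule asks for no Ppbp. In the GENCODE M21 annotation of GRCm38, the protein-coding genes F13a1 and Pf4 span chr13:36867178-37050244 on the minus strand and chr5:90772435-90773383 on the plus strand. The 250 bases before their RefSeq starts (build GRCm38.p6) are printed 5′ to 3′ on the gene's own strand because both genes were detected in most members. The F13a1 stretch is chr13:37050245-37050494 on the minus strand and the Pf4 stretch is chr5:90772185-90772434 on the plus strand. Capitals mark GAGGAA on either strand (TTCCTC when it lies on the other strand), the core letters of the site bound by the myeloid factor PU.1.
F13a1: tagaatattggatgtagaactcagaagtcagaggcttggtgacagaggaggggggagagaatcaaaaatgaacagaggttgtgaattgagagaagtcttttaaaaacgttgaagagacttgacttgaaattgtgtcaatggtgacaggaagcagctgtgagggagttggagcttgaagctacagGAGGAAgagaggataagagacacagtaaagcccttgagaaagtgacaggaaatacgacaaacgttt
Pf4: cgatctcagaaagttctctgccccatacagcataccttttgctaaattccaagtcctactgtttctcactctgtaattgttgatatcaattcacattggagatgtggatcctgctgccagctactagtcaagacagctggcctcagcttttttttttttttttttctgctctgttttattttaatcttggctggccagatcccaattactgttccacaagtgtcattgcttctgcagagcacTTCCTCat
These letters were found before a start of 4 of the 5 marker genes in the promoter set used here, namely Mrc1, F13a1, Cbr2 and Pf4. They were in 4 of the 7 windows of these 5 genes, and Lyve1 had no entry in that set. Among 32851 promoter windows of this length, 23.3% held them, so such a match is common and is only a description of the letters.

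The values that chose the members are given first, as a description. Mrc1 was detected in 46 of 51 awake members and 36 of 41 anesthesia members, with a low of 0, a median of 5 and a high of 27 UMIs per awake member and 0, 5 and 37 per anesthesia member. Pf4 was detected in 51 of 51 and 39 of 41 members, with 1, 9 and 57 UMIs against 0, 5 and 29. Lyve1 was the least often seen, in 22 and 19 members, and Cbr2 was seen in 31 and 21. F13a1 was seen in 40 and 38 members and Ms4a7 in 42 and 32. In CPM, the members' UMIs of a gene scaled to the same total in each library, awake members held Mrc1 at 842 CPM (752 to 939) and anesthesia members at 436 CPM (389.9 to 486). In the reference microglia of the same libraries it stood at 9.48 and 11.0 CPM. These reference microglia are 7601 awake and 8214 anesthesia barcodes outside the rule that held at least 4 of the 7 microglial genes P2ry12, Tmem119, Siglech, Sall1, Gpr34, P2ry13 and Slc2a5 and at most 2 of 10 endothelial markers. Pf4 stood at 1855 CPM (1721 to 1996) and 336 CPM (296 to 380.2) in members and at 7.22 and 4.11 CPM in reference microglia.

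The members just inside the rule held 3 markers, 11 awake and 9 anesthesia barcodes with medians of 5 and 8 UMIs of the 6 genes. Just outside it were 25 awake and 15 anesthesia barcodes with 2 markers and a median of 3 such UMIs in each library. A further 545 and 652 barcodes held 1 marker. One anesthesia barcode with at least 3 markers was left out for a Ppbp UMI, and no awake barcode was. In all, 14 barcode sequences occurred in both libraries, none of them a member.

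Beyond the 6 genes, the members held the RNA of other macrophage genes. Among 3678 genes with at least 50 UMIs in members, 86 (2.34%) were at least 2-fold higher in members than in the other passing barcodes of their own library in both libraries, and 1 (0.0272%) was at least 2-fold lower in both. Of a list of 26 macrophage genes outside the rule, 24 had at least 20 UMIs in members, and 16 of these 24 were at least 2-fold higher in members in both libraries, where the background over 6559 such genes was 2.2%. The genes were described and not tested, and the rule selects for genes that are expressed with its 6 markers.

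Apoe, which encodes the lipid carrier apolipoprotein E, gave most UMIs of the 26 genes, 10016 of 12246 in awake and 5368 of 7408 in anesthesia members. The awake members held a low of 5, a median of 142 and a high of 1107 Apoe UMIs, and the anesthesia members 16, 90 and 449. Pooled, this was 26096 CPM (25587 to 26612) in awake and 7131 CPM (6942 to 7325) in anesthesia members, against 703 and 459 CPM in reference microglia. Every member held Apoe RNA. After each barcode was thinned to 2000 UMIs, an Apoe UMI remained in 46 of 47 awake members and 41 of 41 anesthesia members, against 38.2% and 31.6% of reference microglia. The endocytic adaptor gene Dab2 stood at 839 CPM (749.8 to 936) and 252 CPM (218 to 291) in members and at 12.2 and 10.3 CPM in reference microglia.

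Outside the 6 markers, the gene with the highest ratio over the other passing barcodes was Folr2, which encodes a folate receptor of tissue macrophages, at 410.1-fold in the awake and 129-fold in the anesthesia library. It had 87 UMIs in 27 awake members and 34 UMIs in 15 anesthesia members. Genes of the interferon-inducible Ifi200 family were also among the 15 named by this ratio. Ifi207 was 79.3-fold and 29.2-fold higher, and Ifi203 was 335-fold and 114-fold higher, the latter uncertain because its exons overlap those of Mndal on the same strand. The antigen-presenting genes H2-Aa and H2-Eb1 were 119-fold and 57.9-fold higher in the awake library and 16.6-fold and 13.1-fold higher in the anesthesia library. The chemokine gene Ccl7 was 28.5-fold and 11.6-fold higher, and the chemokine receptor gene Ccr1 was 15.9-fold and 10.1-fold higher. Cybb, which encodes a subunit of the phagocyte NADPH oxidase, was 24.4-fold and 29.2-fold higher, and Rab7b, a GTPase of the endosomal route, 52.2-fold and 45.7-fold. Lgals1, which encodes a galectin, was 66.0-fold and 11.1-fold higher. Cybb was the only one of the 15 genes named by this ratio whose ratio was larger in the anesthesia library.

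Rsad2, Cxcl1 and H2-Eb1, all among those 15 genes, rested on single members. One member held 93.5% of the awake and one held 65.8% of the anesthesia UMIs of Rsad2, an antiviral gene. For the neutrophil-attracting chemokine gene Cxcl1 the shares were 62.0% and 73.0%, and for H2-Eb1 63.8% and 71.4%. The plot of levels shows the 6 markers, other macrophage genes and microglial genes side by side.

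**Figure D1:**
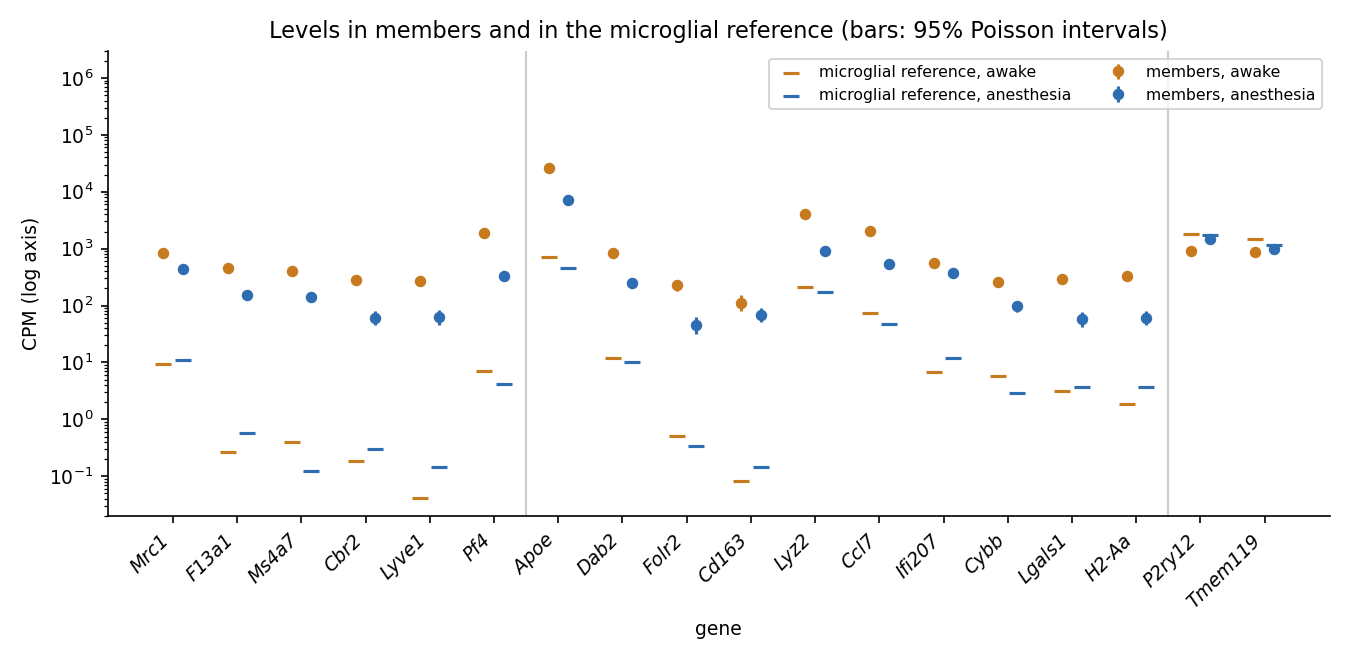
Level of 18 genes in CPM (log axis) in the pooled awake and pooled anesthesia members (dots, bars are 95% Poisson intervals) and in the reference microglia of each library (dashes). The 16 macrophage genes lie above the reference in both libraries with the awake dot above the anesthesia dot, for example Apoe at 26096 against 7131 CPM.

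The members also held microglial RNA, and far more of it in the anesthesia library. The 7 microglial genes together stood in awake members at 54.1% (51.2 to 57.1) of their level in reference microglia and in anesthesia members at 85.5% (82.7 to 88.4). Each gene on its own stood at 44.3% to 59.6% of the reference in awake and at 78.0% to 88.1% in anesthesia members, so the 7 genes moved together. P2ry12, the microglial purine receptor, had a low of 0, a median of 4 and a high of 50 UMIs per awake member and 0, 16 and 76 per anesthesia member. Endothelial barcodes, which held at least 5 of 10 endothelial markers and numbered 169 and 160, stood at 44.2% (42.6 to 45.8) and 64.2% (62.5 to 66.0). The microglial RNA in members was thus above that in another non-microglial type of the same sort in both libraries.

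Microglial RNA in awake members ran from 0% to 136% of the reference median. A limit was set at 25% of this median, which cuts through a run of values, with the nearest awake members at 24.1%, 25.1% and 25.5%. By it, 24 of 51 awake members (47.1%, 32.9 to 61.5) were low in microglial RNA, against 3 of 41 anesthesia members (7.32%, 1.54 to 19.9). Among endothelial barcodes, 59.2% (51.4 to 66.7) and 48.1% (40.2 to 56.2) were below the same limit, and among reference microglia 18 of 7601 and 13 of 8214. The 24 awake members held 60 UMIs of the 7 microglial genes among 122794 UMIs, 7.78% (5.94 to 10.0) of the reference level. Sall1 and Slc2a5 had no UMI in them, which allows up to 3 UMIs. Tmem119 had 5 UMIs in them (2.75% of the reference), against 332 in the other 27 awake members. P2ry12 stood at 8.12% with 18 UMIs, Siglech at 10.1%, Gpr34 at 12.8% and P2ry13 at 13.5%. After thinning, none of the 20 of them with enough UMIs had a Tmem119 UMI, which allows a share of up to 15% by a floor of 3 barcodes and of 16.8% by the Clopper-Pearson interval. The 3 anesthesia members held 25 such UMIs among 28555, and 1 of them, a barcode of 18896 UMIs that carried endothelial markers, held 66.2% of the 28555. Without it, the other 2 held 2 such UMIs among 9659, 3.83% (0.464 to 13.8) of the reference.

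The macrophage genes moved the other way. The 26 macrophage genes outside the rule gave a median of 5.49% (range 1.39 to 13.9) of the UMIs in the 24 awake members low in microglial RNA and 1.24% (0.265 to 7.29) in the other 27. The highest of the other 27 held microglial RNA just above the limit, at 25.5% of the reference median. In all anesthesia members the median was 0.909% (0.206 to 3.98), and in reference microglia it was 0.221% and 0.170%. Most of this share was Apoe, with 10016 of the 12246 awake and 5368 of the 7408 anesthesia UMIs of the 26 genes in members. It therefore mainly follows Apoe and not the 26 genes alike. Across the 51 awake members, microglial RNA and this share ran opposite (Spearman rho = -0.67), and across the 41 anesthesia members less so (rho = -0.30). These are descriptions over barcodes of 1 library each, and since both measures are shares of the same total, they are not independent. Just inside the rule, members with 3 markers had medians of 0.796% and 0.551%, and barcodes with 2 markers just outside it 0.394% and 0.226%. Members with all 6 markers, 12 awake and 10 anesthesia barcodes, had 4.20% and 1.18%.

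**Figure D2:**
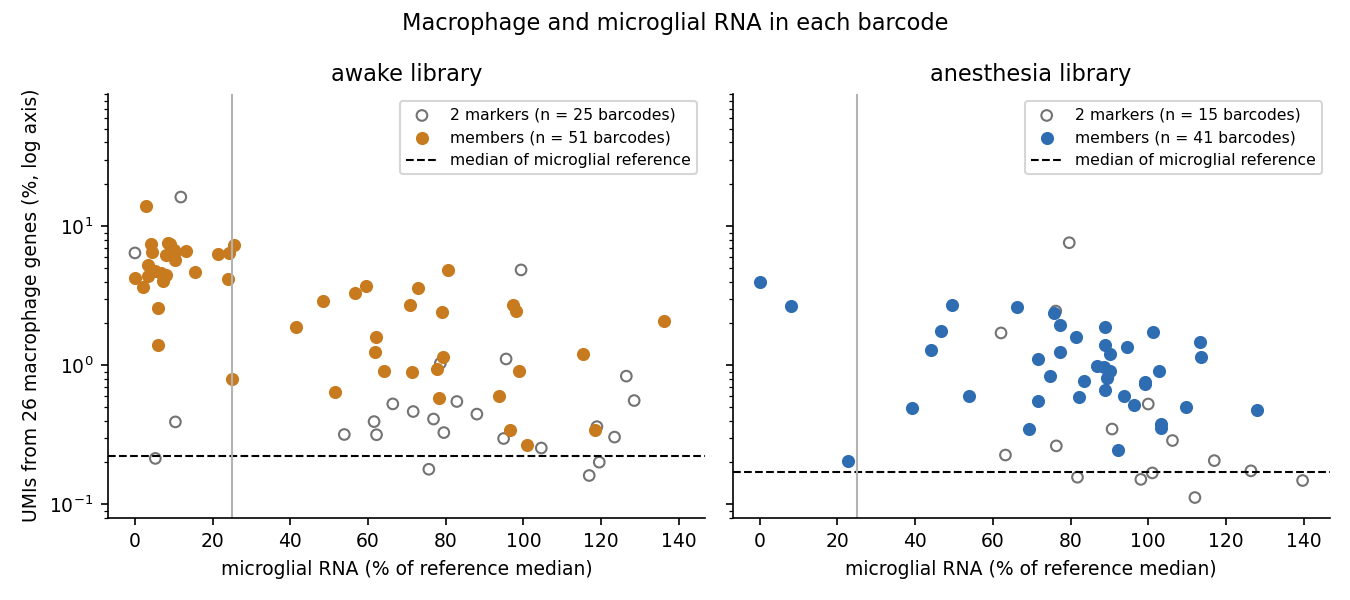
Each member's percent of UMIs from 26 macrophage genes outside the rule (log axis) against its microglial RNA as a percent of the reference median, in the awake and anesthesia libraries. Filled points are members and open points are barcodes with 2 markers, the dashed line is the reference median and the grey line marks 25%, left of which lie 24 awake and 3 anesthesia members. Most UMIs of the 26 genes in members were of Apoe.

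The label was checked against these values. In the 24 awake members low in microglial RNA, macrophage genes outside the rule were high, at 1.39% to 13.9% of the UMIs. Most of this RNA was Apoe, with 5654 UMIs. Monocyte markers stood at 155 CPM in these 24, against 35.6 CPM in reference microglia and 350 CPM in endothelial barcodes of the awake library. The low microglial values of the 24 follow from how they were split off and are no check of the label. Most anesthesia members went against a pure macrophage label: 38 of 41 held over 25% and 34 of 41 held at least 50% of the reference microglial RNA together with their macrophage markers. In the awake library 23 of 51 held at least 50%. Barcodes of the latter kind are called members for their markers and are not taken as pure macrophages. No doublet caller was run, and whether these barcodes held 1 cell with free microglial RNA, 2 cells or a cell with both sets of genes was not tested.

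Depth differed along the same line. Awake members held a median of 6843 UMIs (1043 to 22925) and anesthesia members 13237 (2726 to 48508), while the other passing barcodes held 5952 and 5433. Over 10000 UMIs were found in 12 of 51 awake members (23.5%, 12.8 to 37.5) and 25 of 41 anesthesia members (61.0%, 44.5 to 75.8), against 8.68% and 13.4% of the other passing barcodes. None of the 24 awake members low in microglial RNA was over 10000 UMIs. They had a median of 5400 UMIs and a high of 8243, near that of the other passing barcodes, and the other 27 awake members had a median of 8950. The mitochondrial share was 1.63% at the median in awake and 2.36% in anesthesia members. The part of depth and microglial RNA in the differences below was not tested beyond the values given beside them.

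**Figure D3:**
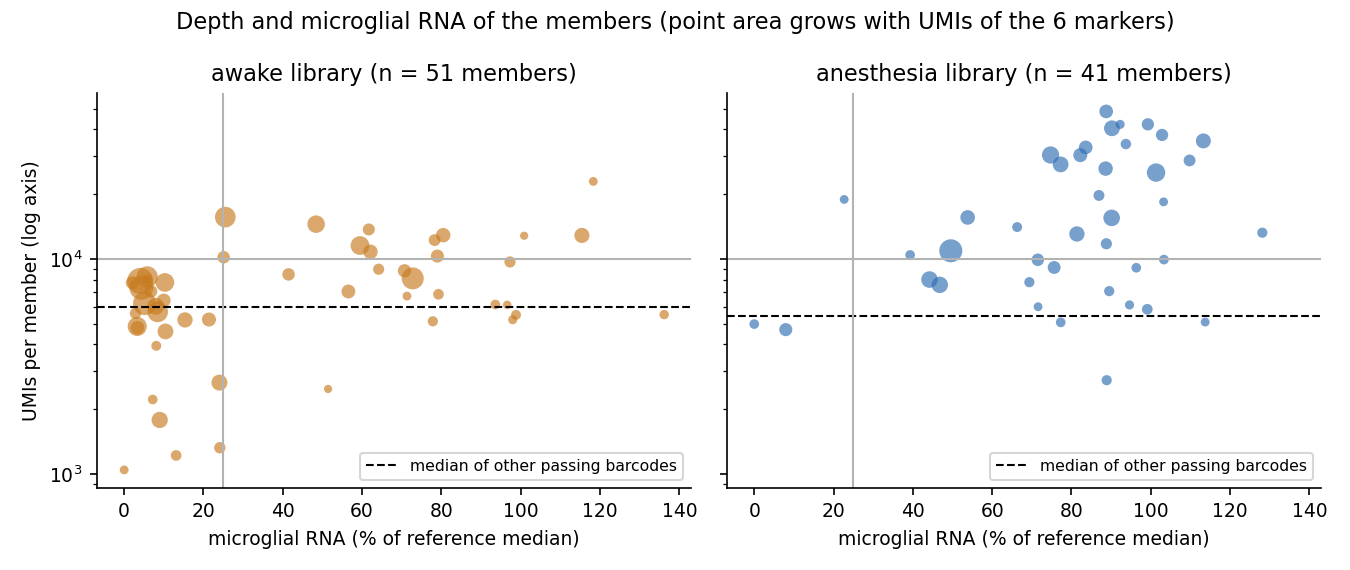
UMIs per member (log axis) against microglial RNA as a percent of the reference median in each library, with point area set by the UMIs of the 6 markers. Dashed lines are the medians of the other passing barcodes, 5952 and 5433 UMIs, and grey lines mark 10000 UMIs and 25%, with 25 of 41 anesthesia members above 10000.

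Lyve1 and MHC class II are known to mark different border-associated macrophages in mouse brain. With class II taken as at least 3 UMIs of H2-Aa, H2-Ab1 and H2-Eb1 together, 19 awake members had Lyve1 alone, 7 class II alone, 3 both and 22 neither. In the anesthesia library the numbers were 19, 4, 0 and 18. Lyve1 was part of the rule, so members without it had to hold 3 of the other 5 markers. The awake member with the most class II RNA held 155 class II UMIs and 63 Apoe UMIs, and the next held 59 and 49 class II UMIs. In the anesthesia library the highest held 67 and 38, and the other 2 class II members held 4 and 3. The 3 awake members with both had 3, 4 and 1 Lyve1 UMIs. In reference microglia, 22 of 7601 and 23 of 8214 barcodes reached 3 class II UMIs. Class II RNA was thus uneven between members, and whether it and Lyve1 kept apart was not tested.

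The share of members among passing barcodes was 0.620% (0.462 to 0.815) in the awake and 0.458% (0.329 to 0.621) in the anesthesia library, and these intervals overlap. Because the rule asks for a number of detected genes, deeper barcodes meet it more easily. After every barcode was thinned to 2000 UMIs (shallower barcodes left out), 28 of 7981 awake (0.351%, 0.233 to 0.507) and 12 of 8577 anesthesia barcodes (0.140%, 0.0723 to 0.244) met it. Of the original members, 28 of 51 and 11 of 41 still did. The members low in microglial RNA were 0.292% (0.187 to 0.434) of the awake and 0.0335% (0.00692 to 0.0980) of the anesthesia passing barcodes. The sort gate and tissue handling can set such shares, and their part was not tested.

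In CPM, most macrophage genes stood lower in the anesthesia members. Of the 3678 genes, 294 (7.99%) were at least 2-fold higher and 167 (4.54%) at least 2-fold lower in anesthesia than in awake members, and the median log2 ratio over all of them was 0.10. The split changed with the members kept, to 77 and 79 genes after thinning, 71 and 77 without members over 10000 UMIs and 46 and 130 in members low in microglial RNA alone. The anesthesia members of these settings held 133144, 108938 and 28555 UMIs, against 752724 in all anesthesia members. The number of genes measured in each setting is not given. The counts higher and lower can therefore be compared within a setting, but not as shares of the 3678 genes. Of the 86 genes that were higher in members than in other barcodes, 58 were at least 2-fold lower and 3 at least 2-fold higher, though these 86 genes were chosen on the same libraries. All 6 markers stood lower, which is a description since the rule used them, and 5 were past 2-fold. The log2 ratio was -0.95 (-1.18 to -0.72) for Mrc1, -1.54 (-1.89 to -1.19) for F13a1, -1.50 (-1.87 to -1.13) for Ms4a7, -2.13 (-2.66 to -1.62) for Lyve1, -2.22 (-2.75 to -1.71) for Cbr2 and -2.46 (-2.68 to -2.26) for Pf4. In reference microglia the log2 ratio of Mrc1 was 0.21 and that of Pf4 -0.81.

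Of the 24 measured macrophage genes outside the rule, 16 stood lower by 2-fold or more and 1 stood higher by as much. Their median log2 ratio was -1.24, against -0.28 for the same genes in reference microglia. Over the 6559 genes of at least 20 UMIs, 10.2% were at least 2-fold higher and 6.3% lower, and the median was 0.07. Of 6558 such genes in reference microglia, 2.53% stood 2-fold or more higher and 1.07% lower. Apoe had a log2 ratio of -1.87 (-1.92 to -1.82), Dab2 -1.73 (-2.00 to -1.47), Folr2 -2.33 (-2.94 to -1.74) and the eosinophil-attracting chemokine gene Ccl24 -2.50 (-3.19 to -1.85). The lysozyme gene Lyz2 went from 4106 to 902 CPM, the galectin gene Lgals1 from 292 to 57.1 CPM and Vim, which encodes the filament protein vimentin, from 287 to 51.8 CPM. Cd209f, a C-type lectin gene, was the 1 gene past 2-fold higher, with 9 and 41 UMIs, but 1 anesthesia member held 80.5% of the latter. The haemoglobin scavenger receptor gene Cd163 stood at 112 and 69.1 CPM, a log2 ratio of -0.70 (-1.31 to -0.08).

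Levels inside the awake library differed with the microglial RNA that members held. In the 24 awake members low in it, Apoe stood at 46045 CPM, Lyz2 at 8038 and Dab2 at 1417. In the other 27 awake members Apoe stood at 16711, Lyz2 at 2257 and Dab2 at 567 CPM, so members of 1 library differed. Of the 4362 Apoe UMIs in these 27, 1107 came from the member at 25.5% of the reference median, just above the limit. Between the libraries, the log2 ratio in low members alone was -2.16 for Apoe, -4.67 for Lyz2, -1.64 for Dab2 and -2.34 at the median of the macrophage genes, with 3 anesthesia members of which the barcode of 18896 UMIs held 66.2% of the UMIs.

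A scale with the microglial part taken off was set beside the first. For 71 genes in which the reference level times the microglial ratio made up at most 10% of the member level in both libraries, this part was subtracted. The rest was divided by the UMIs of the 6 markers, from which nothing was subtracted. The marker sum before subtraction is then equal in both libraries by construction, so this scale says nothing of the macrophage level as a whole. In CPM, 48 of the 71 genes stood at least 2-fold lower and 4 stood higher, and the median log2 ratio was -1.44. Per marker UMI, none was at least 2-fold lower and 17 (23.9%) were higher, with a median of 0.29 (quartiles -0.11 and 0.94). In 5 of these 17, over 50% of the anesthesia UMIs came from 1 member.

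Before subtraction, Apoe had 636 UMIs per 100 marker UMIs in awake and 598 in anesthesia members. With the microglial part taken off it had 626 and 565, a log2 ratio per marker UMI of -0.15 (-0.28 to -0.02). The other UMIs per 100 marker UMIs in this paragraph are before subtraction, and the log2 ratios after it. In the awake members low in microglial RNA Apoe had 582 and in the other awake members 721. Dab2 was also near equal, with 20.4 and 21.2 UMIs per 100 marker UMIs and a log2 ratio of 0.01 (-0.28 to 0.30). The make-up of the markers differed: Mrc1 had 20.5 and 36.5 and Pf4 45.2 and 28.2 UMIs per 100 marker UMIs, with log2 ratios of 0.81 (0.56 to 1.06) and -0.69 (-0.93 to -0.45). This is a description, since the rule used these genes. Shares of 1 sum are also bound to each other, so a lower Pf4 share raises the rest. Inside the awake library, Mrc1 had 21.3 and 19.2 and Pf4 43.8 and 47.4 in members low and not low in microglial RNA, again only as a description. F13a1 had a log2 ratio per marker UMI of 0.24 (-0.12 to 0.60), Ms4a7 0.29 (-0.09 to 0.66), Cbr2 -0.44 (-0.95 to 0.07) and Lyve1 -0.35 (-0.86 to 0.16).

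The interferon-inducible genes Ifi207 and Ifi204 stood higher per marker UMI, at 1.17 (0.88 to 1.45) and 1.41 (0.81 to 2.01), and so did Cd163 at 1.08 (0.49 to 1.68) and the copper-binding ferroxidase gene Cp at 1.26 (0.66 to 1.85). H2-Aa, Lgals1 and Folr2 stood lower by less than 2-fold, at -0.74 (-1.26 to -0.22), -0.64 (-1.19 to -0.10) and -0.55 (-1.14 to 0.04). Ccl7 stood at -0.27 (-0.49 to -0.06). The scale thus turned the direction of Mrc1, Cd163, Ifi207, Rab7b, Sash1 and Ahnak, with intervals clear of 0 in CPM and per marker UMI. Among the other genes that changed sign were F13a1, Ms4a7, Dab2, Cp and Ifi204, whose interval held 0 on 1 of the 2 scales. Pf4, Lgals1, H2-Aa, Apoe and Ccl7 stood lower on both with intervals clear of 0. Cbr2, Lyve1 and Folr2 were among those lower on both with intervals that held 0 per marker UMI.

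**Figure D4:**
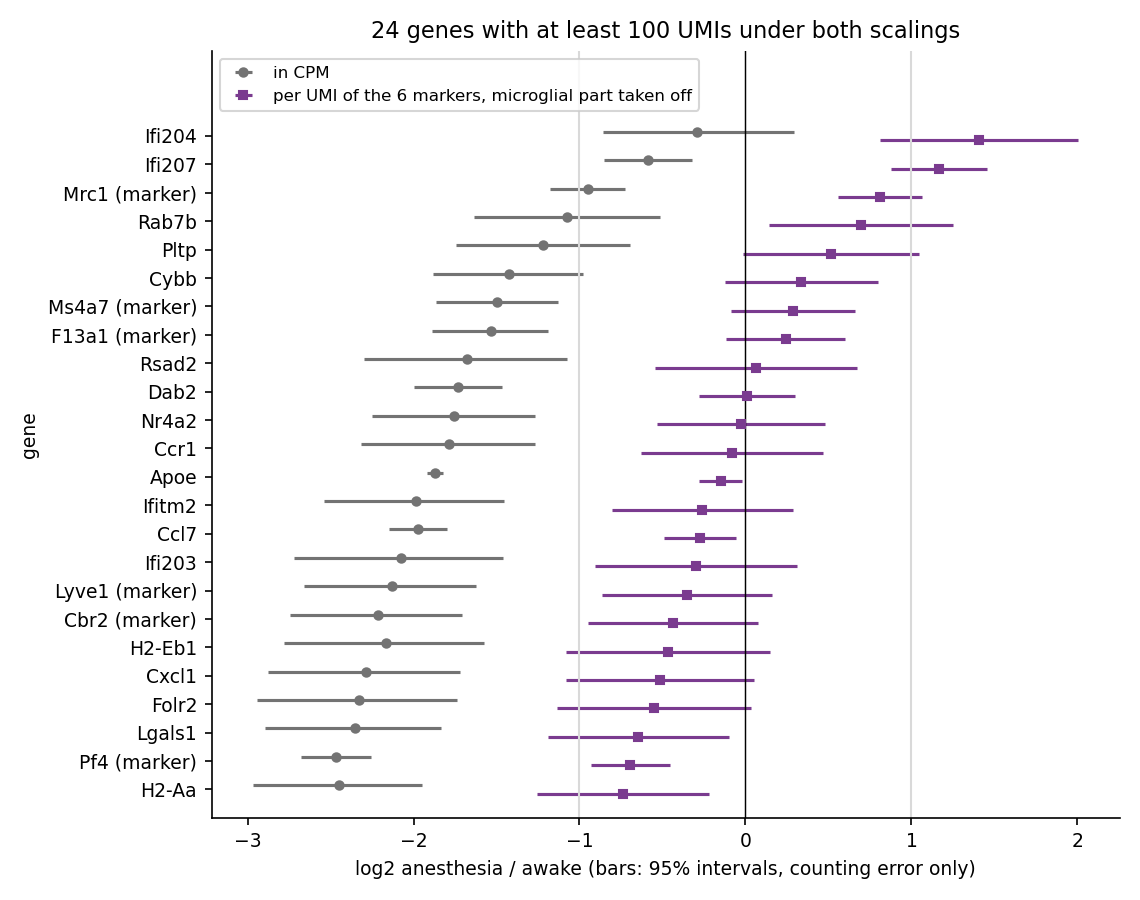
Log2 ratio of anesthesia over awake members for 24 genes of at least 100 UMIs, in CPM and per UMI of the 6 markers with the microglial part taken off (bars are 95% counting intervals). In CPM all 24 points lie below 0, and per marker UMI they lie on both sides of it, for example Apoe at -1.87 and -0.15.

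The MHC class II list had 7 measured genes, of which 4 were at least 2-fold lower and none higher in anesthesia members (median -1.54, and 0.21 in reference microglia). H2-Aa, which encodes a chain of the class II molecule, had a log2 ratio of -2.45 (-2.97 to -1.95), H2-Ab1 -2.43 (-2.99 to -1.91), H2-Eb1 -2.16 (-2.78 to -1.57) and the invariant chain gene Cd74 -1.54 (-1.74 to -1.34). These values rested on few members: the highest member of each library held 63.8% of the awake and 71.4% of the anesthesia H2-Eb1 UMIs. The shares were 47.8% and 53.7% for H2-Ab1, 39.1% and 45.7% for H2-Aa and 24.9% and 25.4% for Cd74. At least 3 UMIs of H2-Aa, H2-Ab1 and H2-Eb1 were held by 10 awake and 4 anesthesia members.

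The interferon response list, 14 measured genes, had 9 at least 2-fold lower and none higher (median -1.24, reference 0.04), and 11 of the 14 were at least 2-fold higher in members than in other barcodes in both libraries. The other barcodes are mostly microglia, and the level was not particular to members. The whole list summed to 2064 and 756 CPM in awake and anesthesia members and to 1933 and 805 CPM in endothelial barcodes. In reference microglia it summed to 247 and 236 CPM. Ifi27l2a had a log2 ratio of -2.38 (-2.99 to -1.81), Ifitm3, which encodes a membrane protein that blocks virus entry, -2.05 (-2.45 to -1.66), Bst2 (tetherin) -1.62 (-1.90 to -1.33) and Rsad2 -1.68 (-2.30 to -1.07). Without the members that carried markers of other cell types, Rsad2 stood at -3.30. The median was -2.21 over 7 genes without members over 10000 UMIs and -0.48 in low members. Per marker UMI the 3 genes of this list that could be set so, Ifi204, Ifit1 and Rsad2, had a median of 0.28, with 1 at least 2-fold higher and none lower. This median is the value of Ifit1, with 18 and 13 UMIs, of which 1 member held 66.7% in awake and 1 held 92.3% in anesthesia.

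Scavenging, iron and heme genes had 5 of 18 at least 2-fold lower and 1 higher (median -0.74, reference -0.04). Complement genes had 3 of 8 lower and none higher (median -0.35, reference -0.10): the properdin gene Cfp at -2.60 (-3.73 to -1.58), C4b at -2.51 (-3.65 to -1.49) and the anaphylatoxin receptor gene C5ar1 at -1.80 (-2.13 to -1.47). Lysosome and endocytosis genes, which microglia also express strongly, had 2 of 22 lower, Dab2 and the cathepsin C gene Ctsc at -1.12 (-1.31 to -0.94), and none higher (median -0.19, reference -0.10). The growth factor list had 3 of 8 higher and 2 lower (median 0.16, reference 0.12). Over all 6559 genes of at least 20 UMIs, 10.2% were at least 2-fold higher and 6.3% lower. The 2 of 22 lysosome and endocytosis genes lower were near that share, and no list count was tested against it.

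The NF-kB and cytokine list went both ways, with 9 of 28 genes at least 2-fold higher and 5 lower (median 0.34, reference 0.21). The median was -0.28 after thinning, -0.27 over the 3 genes that could be set per marker UMI and 0.034 in members with at least 4 markers, so its direction was not stable. The inflammatory genes Ccl3, Ccl4 and Tnf had log2 ratios of 1.16 (1.04 to 1.28), 1.22 (1.11 to 1.34) and 1.13 (0.89 to 1.39) in members and of 1.10, 1.23 and 1.10 in reference microglia, and their awake levels in members were near those of the reference. Ccl3 stood at 1795 and 4012 CPM in members and at 1904 and 4076 CPM in reference microglia. Csf1, a macrophage growth factor gene, went from 3 to 55 UMIs, a log2 ratio of 3.22 (1.60 to 5.55), and stood at 1.28 in the reference.

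Cxcl2 and Il1b of the same list went against the reference microglia. Cxcl2, a neutrophil-attracting chemokine gene, stood at 3999 CPM (3802 to 4205) in awake and 1375 CPM (1292 to 1461) in anesthesia members, and at 176 and 336 CPM in reference microglia. Its UMIs per member ran from 0 to 267 with a median of 2 in the awake and from 0 to 187 with a median of 3 in the anesthesia library. Il1b, an inflammatory cytokine gene, went from 229 to 163 CPM in members and from 77.6 to 179 CPM in the reference, and 11 of 51 awake and 23 of 41 anesthesia members held it. The monocyte-attracting chemokine gene Ccl2 stood at -0.72 (-0.85 to -0.58) in members and -0.14 in the reference. In the awake members low in microglial RNA, Cxcl2 stood at 8518 and Ccl2 at 3917 CPM.

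The circadian clock list had 12 measured genes, 7 of them at least 2-fold higher and none lower. Their median was 1.03 (reference 0.60) over the 11 genes seen in both libraries and 1.15 with Bhlhe40, which had no awake UMI, at its lower bound. A single anesthesia member, the barcode of 18896 UMIs, held 18 of the 22 Bhlhe40 UMIs, and without this gene 6 were higher. After thinning, the median was 0.27 over 3 genes. The clock output gene Dbp stood at 2.40 (0.72 to 4.75), the repressor gene Nr1d2 at 2.23 (0.90 to 3.92), Per3 at 2.20 (0.14 to 5.35) and Rora at 1.98 (0.48 to 3.95), and in reference microglia at 0.91, 1.29, 0.85 and 0.48. Counts were low, with 3 and 31 UMIs for Dbp and 2 and 18 for Per3. Glucocorticoid response genes had 3 of 12 higher and 2 lower (median 0.34, reference 0.15), with Klf9 at 1.98 (0.48 to 3.95), Fkbp5 at 1.77 (0.52 to 3.29) and Tsc22d3 at -1.56 (-2.00 to -1.13). Immediate early genes had 2 of 24 higher and 3 lower (median -0.34, reference -0.37), with the transcription factor genes Maff at 1.88 (1.23 to 2.60), Nr4a2 at -1.75 (-2.25 to -1.27) and Klf2 at -1.61 (-1.80 to -1.42). Heat shock genes had 2 of 14 higher and 1 lower (median -0.09, reference -0.20), and mitochondrially encoded genes 3 of 12 higher and none lower (median 0.66, reference 0.87). Over all 6559 genes of at least 20 UMIs, 10.2% were higher and 6.3% lower. The 2 of 24 immediate early genes higher and the 1 of 14 heat shock genes lower were near these shares, and no list count was tested against them. The 14 microglial identity genes, which the carry-over set is part of, had a median of 0.39 in members and -0.34 in the reference, with none past 2-fold in either.

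**Figure D5:**
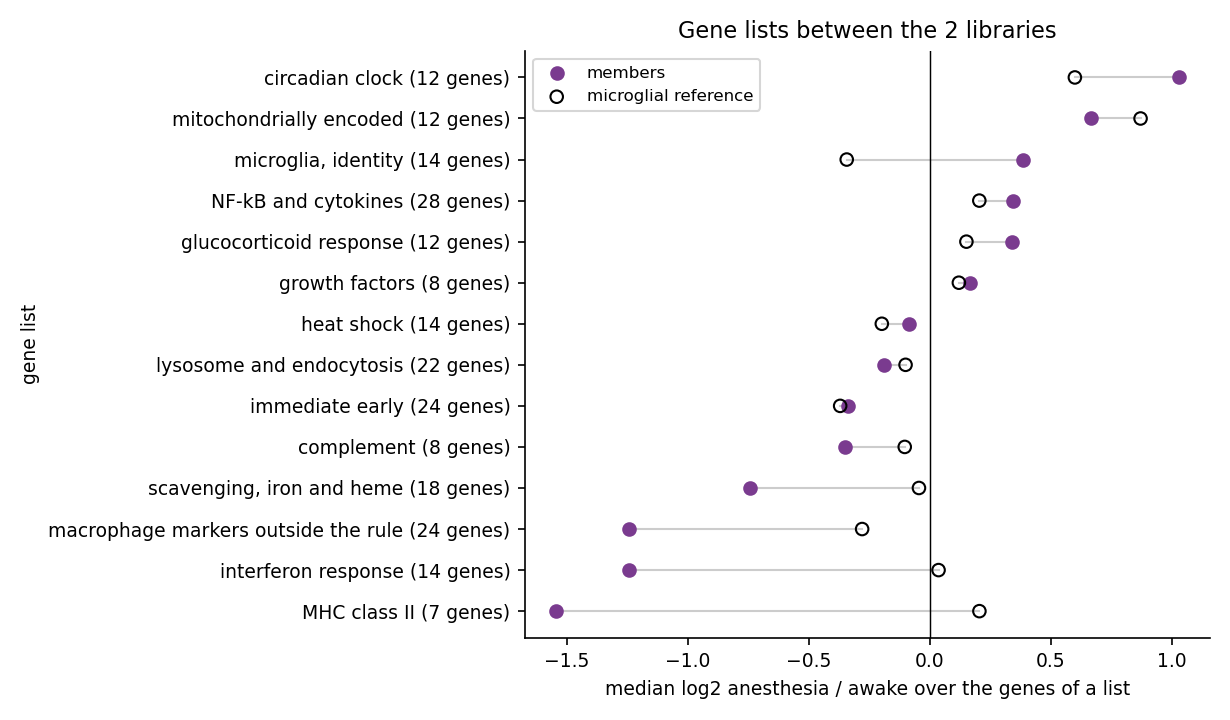
Median log2 ratio of anesthesia over awake for 14 gene lists in members and in reference microglia (genes of at least 20 UMIs in members). The macrophage, MHC class II and interferon lists lie lowest in members, at -1.24, -1.54 and -1.24, against -0.28, 0.21 and 0.04 in the reference, while the clock and mitochondrial lists lie above 0 in both.

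Among the genes with the highest log2 ratios, most stood near the reference microglia in the anesthesia members and below them in the awake members. The protease gene Adamts1 went from 46.9 to 263 CPM with the reference at 153 and 253. Havcr2, which encodes the checkpoint receptor TIM-3, went from 33.9 to 129 CPM with the reference at 86.0 and 149, and Tent5c, which encodes a poly(A) polymerase, went from 67.7 to 248 CPM with the reference at 141 and 261. In the awake members low in microglial RNA, Havcr2 had no UMI. Of all 294 genes at least 2-fold higher, 56 were also at least 2-fold higher in the reference, and of the 167 lower genes 15 were also lower there.

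The interferon-induced chemokine gene Cxcl10 had 21 UMIs in 5 awake members and 371 in 22 anesthesia members, a log2 ratio of 3.17 (2.54 to 3.88). Of the anesthesia UMIs, 148 and 101 came from 2 members, and without the members that carried markers of other cell types the log2 ratio was 1.81. Ttr, the transthyretin gene of the choroid plexus, had the highest log2 ratio, 4.14 (3.69 to 4.63), but 1 anesthesia member held 1351 of its 1385 UMIs. Without the member that held most of its UMIs in each library, the log2 ratio of Ttr was -0.13.

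Markers of other cell types were low in most members and high in a few. The 10 endothelial markers summed to 284 CPM in awake and 504 CPM in anesthesia members (0 to 0.168% and 0 to 1.61% of a member's UMIs), mural cell markers to 2.61 and 201 CPM and choroid plexus markers to 109 and 1966 CPM. In reference microglia these were 61.0 and 48.3, 6.75 and 8.58, and 123 and 707 CPM. Pltp alone gave 70 of the 109 awake and 59 of the 379 anesthesia UMIs of the endothelial list, in 29 and 20 members. It also counts among the markers of another type below. Fibroblast markers had 3 and 3 UMIs, neutrophil markers 12 and 1, monocyte markers 25 and 8, dendritic cell markers 9 and 18 and T or NK cell markers 0 and 5. B cell markers had 59 and 145 UMIs, mostly Ighm, and platelet markers 16 and 38 with Ppbp at 0 by the rule. At least 3 markers of another type were found in 5 awake members, all endothelial, and in 10 anesthesia members, of which 9 had endothelial, 1 mural and 1 choroid plexus markers. Without these members the counts of genes at least 2-fold higher and lower in anesthesia were 215 and 142, and 68 genes were higher in members in both libraries. The number of genes measured without these members is not given, so these counts are not shares. The median log2 ratio was then -1.39 for the macrophage genes outside the rule, -1.71 for MHC class II and -1.58 for interferon response.

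Single members also went against the label, and the clearest by endothelial and pericyte genes was 1 anesthesia member. It held 18896 UMIs but 5 UMIs of the 6 markers, and the 26 macrophage genes gave 0.206% of its UMIs, the lowest of all anesthesia members and near the reference median. It held over 50% of the anesthesia members' UMIs of 27 genes, among them the endothelial genes Cldn5 and Flt1 with 45 and 47 UMIs, the pericyte gene Rgs5 with 47, the glucose transporter gene Slc2a1 with 63 and the interferon gene Ifnb1 with 26. It was 1 of the 3 anesthesia members low in microglial RNA, at 22.7% of the reference median. The log2 ratio of Slc2a1 was 2.34 (1.48 to 3.33) with all members and 1.29 without the members that carried markers of other cell types. Another anesthesia member, of 10430 UMIs, held 1351 Ttr UMIs but 8 UMIs of the 6 markers and 0.489% from the 26 macrophage genes. A further one, of 42217 UMIs, held 6 marker UMIs and 0.244%, with microglial RNA at 92.3% of the reference median. Awake members of 12811, 6111 and 22925 UMIs held 3, 4 and 5 marker UMIs and 0.265%, 0.344% and 0.345%. Their microglial RNA was at 101%, 96.6% and 118% of the reference median. An awake member of 8063 UMIs, low in microglial RNA, held 6 marker UMIs, 4 of Ms4a7 and 1 each of F13a1 and Pf4. Its 1.39% from the 26 macrophage genes was the lowest of the 24 low awake members. It held 48 of the 50 Lgals3, 22 of the 30 Lpl and 34 of the 48 Crip1 UMIs of awake members. Its cell type was not tested.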

How the data were processed

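The deposited files hold whole-number UMI counts per gene and barcode, not normalized, for 1 awake and 1 anesthesia library. The submitters' processing notes name bcl2fastq, Cell Ranger 3.1.0 and GRCm38, while Cell Ranger 4.0.0 is named per the file headers, and which version made the counts could not be settled. All 55450 gene identifiers matched GENCODE M21, and promoters came from RefSeq (GRCm38.p6). The libraries held 53262885 and 61139016 UMIs in 8600 and 9412 deposited barcodes, of which the members held 383813 and 752724.

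Counts were summed per library over the members, over reference microglia and over endothelial barcodes and scaled to one total per library (CPM). Log2 ratios have exact conditional binomial, CPM exact Poisson and shares exact Clopper-Pearson 95% intervals. A gene was called at 2-fold and 50 UMIs over both libraries, and list genes were measured from 20 UMIs. Named genes were the markers, the 15 with the highest ratio of members to other barcodes (the lower library counting), the 12 highest and 12 lowest log2 ratios from 100 UMIs, and up to 4 genes a list by size of ratio. Other genes (such as Ccl3, Ccl4, Tnf, Il1b, Cxcl2, Ccl2, Cd163, Cp, Cd209f, Ifi204, Ifnb1 and Flt1) were chosen after their values were seen. Members and lists were chosen with earlier results of these data known. No doublet caller was run. The scripts were tested on simulated data (python 3.11.15, numpy 2.4.6, scipy 1.17.1, pandas 2.3.3). Alternatives changed the marker number, depth, fold, gene minimum, mitochondrial limit and scale.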

Additional observations from a re-analysis of the deposited data

Results flagged for a closer look

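Cxcl2, a neutrophil-attracting chemokine gene, stood lower in anesthesia than in awake members, with a log2 ratio of -1.54, while it stood higher in the anesthesia reference microglia, at 0.93. The intervals lay on opposite sides of 0, with counting error only, and with 1 library per group the difference between members and reference was not tested. Awake members held 1535 and anesthesia members 1035 Cxcl2 UMIs, and the awake members low in microglial RNA held 1046 of the 1535.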

How the results depend on the processing

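No paired analysis was possible because each group has 1 library, and for the same reason no replicate was left out. The settings per marker UMI, without members that carried markers of other cell types (all or low members) and without the top member per library were chosen after seeing the data. With the microglial share taken off, the reference level times the microglial ratio (54.1% awake, 85.5% anesthesia) was subtracted from the CPM. The rest was divided by 1 minus this ratio. The ratio is an upper estimate of carry-over and leaves little of the anesthesia level, so counting error weighs more on this scale. The cause of each move was not tested, except that stricter settings hold fewer barcodes or genes.

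Shares of members were 0.351% awake and 0.140% anesthesia when markers were counted after thinning to 2000 UMIs, 0.292% and 0.0335% for members low in microglial RNA, and 0.179% in anesthesia without members over 10000 UMIs. Microglial RNA was 46.4% of the reference in awake members with at least 4 markers. Awake and anesthesia were at 41.9% and 69.1% after thinning, at 40.0% and 73.1% without members over 10000 UMIs and at 7.78% and 16.2% in the low members. In low members, 23 of the 25 anesthesia UMIs came from the barcode of 18896 UMIs with endothelial markers. Without members with other cell types' markers, low members stood at 8.16% (6.21 to 10.5) in awake and 3.83% (0.464 to 13.8) in anesthesia, so the order turned and the intervals overlap.

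The counts of genes higher and lower in anesthesia were 764 and 467 at 1.5-fold, 124 and 75 from 100 UMIs, 667 and 413 from 20 UMIs, 77 and 79 after thinning, 71 and 77 without members over 10000 UMIs, and 969 and 504 with the microglial share taken off. In low members alone, 46 were higher and 130 lower. Per marker UMI they were 9 and 0, without a total of genes, against the 17 and 0 of 71 genes given above. Genes higher in members in both libraries were 45 from 100 UMIs, 144 from 20 UMIs, 48 in low members and 47 without members over 10000 UMIs. From 20 UMIs, 6559 genes were measured. For settings that changed the members or the scale, the number of genes measured is not given. Their counts are not shares and cannot be compared by size between settings.

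The MHC class II median was -0.94 with at least 4 markers, -3.27 after thinning, -2.38 without members over 10000 UMIs and -0.99 with the microglial share taken off. The NF-kB and cytokine median was 0.034 with at least 4 markers, -0.28 after thinning and -0.27 per marker UMI. Complement stood at -0.65 after thinning, -1.66 in low members and -0.97 with the microglial share taken off. The clock median was 0.27 over 3 genes after thinning and 2.23 with the microglial share taken off, and the interferon median -2.21 over 7 genes without members over 10000 UMIs. In low members (3 in anesthesia, of which the barcode of 18896 UMIs held 66.2% of the UMIs) the medians were 1.33 for glucocorticoid response, -1.60 for growth factors, 0.14 for immediate early, -0.48 for interferon response, -1.32 for lysosome and endocytosis, -2.34 for macrophage genes outside the rule, 0.033 for mitochondrially encoded and -2.14 for scavenging genes. With the microglial share taken off they were 1.27 for glucocorticoid response, 0.22 for immediate early, -0.10 for interferon response, -0.19 for macrophage genes outside the rule, 0.28 for mitochondrially encoded and -0.18 for scavenging genes. Per marker UMI they were 0.28 for interferon response and 0.011 for macrophage genes outside the rule, and 0.43 for scavenging genes, all 3 with the other sign and the second near 0. The first is the value of Ifit1, most of whose UMIs came from 1 member in each library. The immediate early, NF-kB, growth factor and heat shock medians, each under 2-fold, also took the other sign in 1 or more of these settings, 12 such values with that of scavenging genes.

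Single genes that took the other sign were Cybb (0.22), F13a1 (0.12), Ms4a7 (0.16) and Rab7b (0.57) with the microglial share taken off, and Cybb (0.34), Dab2 (0.011), F13a1 (0.24), Ms4a7 (0.29), Rab7b (0.70) and Rsad2 (0.065) per marker UMI. Of the latter, only Rab7b had an interval per marker UMI that lay clear of 0. In low members, Rsad2 turned to 0.92 and Ttr to -2.85. Ttr turned to -2.47 without members over 10000 UMIs, to -1.37 without members with other cell types' markers and to -0.13 without the top member per library. Mrc1 (0.69 and 0.81) and Ifi207 (1.04 and 1.17), under 2-fold lower in all members, also turned with the microglial share taken off and per marker UMI. Of the other values for single genes, 229 stayed inside their counting interval and 127 left it with the sign kept. Of all values for shares, counts and lists, 131 stayed inside the interval or within 1.5 times, among them 6 list medians near 0 that took the other sign.

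With 41 to 51 members and a median of 17 to 23 marker UMIs in each, genes under 50 UMIs carry wide intervals, and differences between single members cannot be read from 1 or 2 UMIs.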

Other observations

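A few barcodes outside the rule held as many macrophage transcripts as members did. Among the 25 awake barcodes with 2 markers, the 26 macrophage genes outside the rule gave 16.2%, 6.42% and 4.85% of the UMIs in the highest 3, against a median of 0.394%. Among the 15 anesthesia barcodes with 2 markers, the highest held 7.61% and the next 2.45%, against a median of 0.226%. The part of Apoe in these shares is not given.

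The clock gene Bhlhe40 had no UMI in awake and 22 in anesthesia members, 18 of them in 1 member, which is at least 3.74-fold higher against a floor of 3 UMIs over the awake members. In the anesthesia library, a member of 27499 UMIs held 27 Cxcl1, 38 Iigp1 and 14 Ifit2 UMIs, each over 50% of that gene's UMIs in the anesthesia members, and 101 of the Cxcl10 UMIs. The member that held 1351 Ttr UMIs had 10430 UMIs in all and 39.3% of the reference microglial RNA. In the awake library, members of 8063 and 6400 UMIs held over 50% of the awake members' UMIs of 5 and 4 genes. These were Lgals3, Lpl, Crip1, Capg and S100a10 in the first, and Rsad2, Iigp1, Mx1 and Ifit3 in the second.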
